A study of Mus musculus with 6 samples.

Results

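Neutrophils carry the genes of the inflammasome, the protein assembly that turns danger signals into caspase activity. The 10 genes described here are 4 inflammasome sensors (Nlrp3, Nlrp1b, Nlrc4 and Aim2), the related receptors Nlrp12 and Nod2, the adaptor Pycard, the inflammatory caspases Casp1 and Casp4, and the pore-forming gasdermin gene Gsdmd. They were chosen by symbol, with earlier results of these data known. All 10 were found among the 47561 gene and transcript features of the deposited files. The samples were flow-sorted neutrophils of mouse blood, in 2 groups of 3 libraries each. The AVP group came from mice given AVP for 30 days, and the control group is labelled as a negative control. Day 30 is recorded for the libraries of both groups. The genotype field of the labels holds only the words AVP and control; the sources used here state no strain, age, dose or route and do not expand the abbreviation AVP. Whether each library stands for a different animal is not stated, and the p-values therefore speak only of the spread among these libraries, which may be technical.

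Canonical inflammasomes form when a sensor protein detects its trigger and recruits the adaptor ASC, encoded by Pycard, which gathers caspase-1. Caspase-1 cleaves the precursors of interleukin-1 beta and interleukin-18, and it cleaves gasdermin D, whose fragment opens pores in the plasma membrane. The mouse caspase-11, encoded by Casp4, binds bacterial lipopolysaccharide in the cytosol and cleaves gasdermin D without a sensor of this kind. In macrophages the Nlrp3 gene is known to be raised by NF-kB signalling in a step called priming, and neutrophils are a major blood source of interleukin-1 beta.

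The promoters of 3 members are shown because the results turn on them, although no member passed the adjusted test described further on. They are Nlrp3, a sensor whose AVP libraries were all above the controls, Pycard, the adaptor, whose AVP libraries were all below them, and Casp4, the member with the highest mean and the widest spread. Each window runs from 250 bases before to 50 bases after an annotated start, 5′ to 3′ on the strand of the gene, from RefSeq on GRCm38.p6. Capitals mark matches on either strand to the NF-kB consensus, to the AP-1 site TGANTCA, to the interferon response element (TTTC, any 2 bases, TTTC) or to the PU.1 site GAGGAAG.
Nlrp3, first start (chr11:59541319-59541618, plus strand): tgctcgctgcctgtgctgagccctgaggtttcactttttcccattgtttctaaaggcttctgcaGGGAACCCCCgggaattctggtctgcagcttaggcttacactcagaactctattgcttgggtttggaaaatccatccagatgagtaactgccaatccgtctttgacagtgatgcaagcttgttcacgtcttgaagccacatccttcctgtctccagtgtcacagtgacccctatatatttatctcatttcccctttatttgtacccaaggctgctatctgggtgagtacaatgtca
Nlrp3, second start (chr11:59542436-59542735, plus strand): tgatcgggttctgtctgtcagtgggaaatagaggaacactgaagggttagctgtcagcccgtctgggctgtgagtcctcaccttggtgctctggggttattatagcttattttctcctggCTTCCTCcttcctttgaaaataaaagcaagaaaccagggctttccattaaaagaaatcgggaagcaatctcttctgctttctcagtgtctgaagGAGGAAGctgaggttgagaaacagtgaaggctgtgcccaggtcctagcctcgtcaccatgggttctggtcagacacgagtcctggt
Pycard (chr7:127993818-127994117, minus strand): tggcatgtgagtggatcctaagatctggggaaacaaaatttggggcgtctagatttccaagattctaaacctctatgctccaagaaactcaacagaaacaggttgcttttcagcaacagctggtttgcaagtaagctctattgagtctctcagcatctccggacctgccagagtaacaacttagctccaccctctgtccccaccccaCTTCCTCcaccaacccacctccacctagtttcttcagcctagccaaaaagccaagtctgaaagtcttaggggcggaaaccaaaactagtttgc
Casp4, first start (chr9:5308599-5308898, plus strand): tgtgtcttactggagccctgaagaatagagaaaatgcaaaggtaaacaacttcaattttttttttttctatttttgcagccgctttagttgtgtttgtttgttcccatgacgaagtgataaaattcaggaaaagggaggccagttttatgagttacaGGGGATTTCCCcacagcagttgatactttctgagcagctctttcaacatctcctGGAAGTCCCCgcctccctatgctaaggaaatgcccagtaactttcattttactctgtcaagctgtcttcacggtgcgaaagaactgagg
The window of the first Nlrp3 start held 1 match to the NF-kB consensus, 186 bases before the start. That of the second start held 2 matches to the PU.1 site, 130 and 36 bases before it, and none to the NF-kB consensus. The Pycard window held 1 PU.1 match, 43 bases before the start. The Casp4 window held 3 NF-kB matches, of which those 93 and 92 bases before the start overlap. Windows of Nlrp3 and Casp4 were the only ones among the members' 12 to hold the NF-kB consensus, which 8.46% of all 32851 windows held. Windows of Aim2 and Nlrp1b also held the PU.1 site, which was in 13.6% of all windows. The AP-1 site was in 7.81% of all windows and the interferon element in 3.44%, and the windows of the members held none of these 2 motifs. Such letters are a description of the window and do not show binding.

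The values are taken to be FPKM, a unit that was inferred because none is named. FPKM counts fragments relative to transcript length and depth, so on that reading levels can be set side by side between genes. Judged by what 1 fragment is worth in short pseudogenes, the libraries held about 14205000 to 16835000 fragments each. A value of exactly 0 may stand for an estimate that failed, and 307 of 3579 genes with a mean of at least 10 FPKM were listed at 0 in at least 1 library. Of 10 neutrophil markers, 9 were above 0 in all 6 libraries, with S100a8 between 95287 and 121812 FPKM, while Camp was listed at 0 in AVP replicates 1 and 3 and in control replicate 2. The groups did not overlap for Retnlg, between 9729 and 11050 FPKM in AVP libraries and between 4925 and 5538 FPKM in controls, or for Mmp9, between 100.5 and 197 FPKM in AVP libraries and between 229 and 374 FPKM in controls. Neither passed the adjusted test (adjusted p 0.0656 and 0.567 by limma). Ly6g, the usual surface marker, lay between 64.0 and 166 FPKM in AVP libraries and between 23.4 and 77.0 FPKM in controls. RNA of other cells was also present, most of it from red cells. The 7 red cell markers summed to 242562, 119310 and 135395 FPKM in AVP replicates 1, 2 and 3, against 102661, 154851 and 139557 FPKM in control replicates 1, 2 and 3, so AVP replicate 1 was the highest. Platelet markers summed to between 84.4 and 214 FPKM in AVP libraries and between 99.5 and 199 FPKM in controls. The 12 monocyte markers summed to 927, 1195 and 236 FPKM in AVP replicates 1, 2 and 3, and to 560, 897 and 1210 FPKM in control replicates 1, 2 and 3. The 10 B cell markers summed to 2118, 6833 and 5104 FPKM in the AVP libraries and to 7488, 8834 and 6565 FPKM in the controls. T and NK cell markers reached 162 FPKM in AVP replicate 3 and at most 16.6 FPKM elsewhere, with Cd3e, Cd4 and Cd8a at 0 in all 6 libraries. Basophil markers summed to 338 FPKM in AVP replicate 1, to 31.1 FPKM in control replicate 2 and to at most 0.0466 FPKM elsewhere.

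Nlrp3 stood higher and Pycard lower in every AVP library than in any control library, while the caspases and Gsdmd overlapped between the groups. Of the 10 members, 9 passed the filter of at least 1 FPKM in at least 3 libraries, and Nlrc4 did not. By limma on log2(FPKM + 1), with Benjamini-Hochberg adjustment over all 8523 genes tested, 0 members passed an adjusted p of 0.05 in either direction. Over all genes 0% were called in either direction at that threshold, so no difference below passed the test. At an unadjusted p under 0.05 there were 2 members, where 8.47% of all genes tested lay: Nlrp3 was higher, as were 4.72% of all genes, and Pycard was lower, as were 3.75%. The groups did not overlap in deposited FPKM for 3 of the 9, against 14.0% of all genes: Nlrp3 and Nlrp1b were higher (6.39% of all genes) and Pycard lower (7.63%). The median log2 fold change of the 9 was 0.22, and that of all genes was -0.04.

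**Figure D1:**
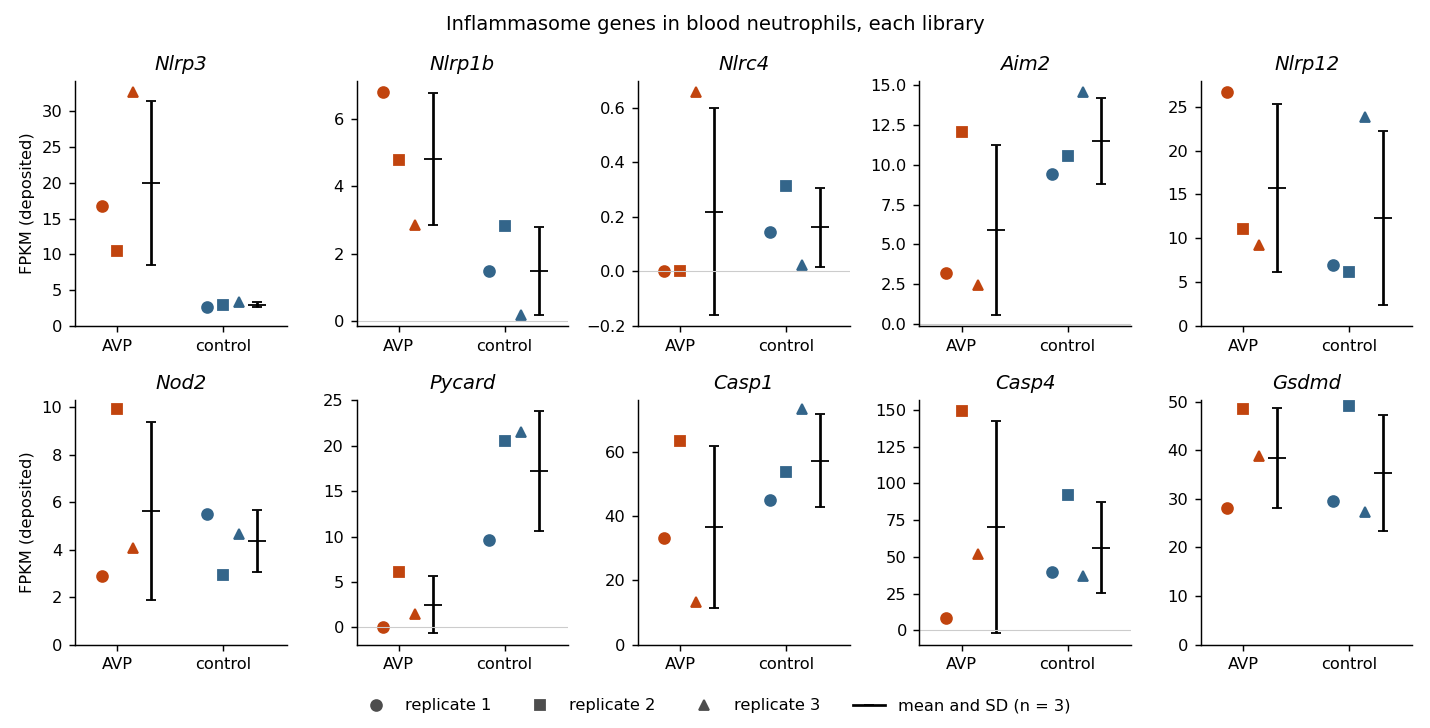
Deposited FPKM (vertical axes, a scale of its own in each panel) of the 10 members in the 3 AVP and 3 control libraries, with marker shapes for the replicate numbers and the mean and SD beside each group. All 3 AVP libraries lie above all 3 controls for Nlrp3 and Nlrp1b and below them for Pycard, and the groups overlap for the other members.

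Among the sensors, Nlrp3 had the greatest difference. Nlrp3 responds to potassium efflux, crystals and bacterial toxins, and its gene lies on chromosome 11 from 59541569 to 59566955 (GRCm38, the assembly of mm10, gene identifier 216799). Nlrp3 was at 16.8, 10.5 and 32.7 FPKM in AVP replicates 1, 2 and 3, and at 2.65, 2.92 and 3.31 FPKM in control replicates 1, 2 and 3. The controls lay close together, and the lowest AVP library was above the highest control. Its means were 20.0 ± 11.5 FPKM after AVP and 2.96 ± 0.331 FPKM in controls (SD, n = 3 each). By limma the log2 fold change was 2.34 (SE 0.59, 95% interval 0.99 to 3.69) and the adjusted p 0.291. A two-sided exact permutation test reached p = 0.1, below which a design of 3 against 3 cannot go. When any single library was left out, the log2 fold change stayed between 1.94 and 2.75.

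Nlrp1b, in the mouse a sensor of the anthrax lethal factor protease, was a low gene. It was at 6.79, 4.78 and 2.86 FPKM in the AVP libraries, with control values of 1.47, 2.81 and 0.191 FPKM. The groups were apart only by the narrow step between AVP replicate 3 and control replicate 2. By limma it differed by 1.37 on the log2 scale (SE 0.68, 95% interval -0.20 to 2.95, adjusted p 0.661). The gene spans chromosome 11 from 71152574 to 71242514 and overlaps the pseudogene Nlrp1c-ps, a close copy that was listed at 0 in all 6 libraries, so how fragments were shared between the copies is uncertain. Aim2, the sensor of cytosolic double-stranded DNA, was at 3.20, 12.0 and 2.49 FPKM in the AVP libraries, with control values of 9.39, 10.6 and 14.5 FPKM. AVP replicate 2 lay among the controls and the other AVP libraries lay below them. Its log2 fold change was -1.03 by limma (SE 0.64, 95% interval -2.50 to 0.44, adjusted p 0.745).

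Nlrc4, which works with the NAIP proteins in sensing bacterial flagellin and secretion system proteins, was barely recorded. It was listed at 0, 0 and 0.656 FPKM in the AVP libraries, with control values of 0.145, 0.312 and 0.0241 FPKM. At the estimated depth these values stand for about 52 fragments in AVP replicate 3 and for about 9.8, 22 and 1.6 fragments in the controls. Being under the filter, it was not tested. The pseudogene Gm4708, which lies within its span, was listed at 4.18 to 6.86 FPKM in AVP libraries and at 4.75 to 5.79 FPKM in controls, above Nlrc4 itself. Summed over the 4 sensors, the level was 26.8, 27.3 and 38.7 FPKM in the AVP libraries and 13.7, 16.6 and 18.1 FPKM in the controls. Within that sum the ratio of Nlrp3 to Aim2 was 5.24, 0.872 and 13.1 after AVP, so Nlrp3 was above Aim2 in replicates 1 and 3. In the controls it was 0.282, 0.277 and 0.228, with Nlrp3 below Aim2 in all 3.

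The related receptors Nlrp12 and Nod2 did not separate the groups. Nlrp12, described as a brake on NF-kB signalling and expressed in neutrophils, was at 26.7, 11.1 and 9.26 FPKM in the AVP libraries, with control values of 6.96, 6.18 and 23.8 FPKM. In each group 1 library was high, AVP replicate 1 and control replicate 3. The overlapping long non-coding gene D7Ertd143e was at 2.41, 5.47 and 0.888 FPKM in the AVP libraries, with control values of 0.153, 0.186 and 4.24 FPKM, and its part in the Nlrp12 values was not tested. The log2 fold change was 0.51 (SE 0.68, 95% interval -1.05 to 2.06), and it was 0.01 without AVP replicate 1 and 1.07 without control replicate 3. Nod2, a cytosolic receptor for muramyl dipeptide of the bacterial cell wall that signals through RIPK2, was at 2.89, 9.92 and 4.06 FPKM in the AVP libraries, with control values of 5.50, 2.91 and 4.67 FPKM. Only AVP replicate 2 stood apart from the range of the controls by more than a small step. The log2 fold change of Nod2 was 0.26 (SE 0.63, 95% interval -1.19 to 1.70), and -0.13 without that library.

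Pycard, the adaptor that links Nlrp3 and Aim2 to caspase-1, differed in the direction opposite to Nlrp3. The gene lies on chromosome 7 from 127991373 to 127993867 (GRCm38, gene identifier 66824). Pycard was listed at 0 in AVP replicate 1 and was at 6.05 and 1.47 FPKM in AVP replicates 2 and 3. In control replicates 1, 2 and 3 it was at 9.57, 20.5 and 21.5 FPKM. Every AVP library was below every control. Its log2 fold change was -2.71 by limma (SE 0.81, 95% interval -4.57 to -0.84, adjusted p 0.351), with an exact permutation p of 0.1, two-sided. Because the value of 0 may be a failed estimate, the fit without AVP replicate 1 is given as well: the log2 fold change was then -2.03, with an adjusted p of 0.618. Over all left-out libraries the fold change lay between -3.40 and -2.03. In AVP replicate 1, where Pycard was listed at 0, the B cell marker sum was the lowest (2118 FPKM) and the red cell marker sum the highest (242562 FPKM) of the 6 libraries, and their part in the Pycard result was not tested. In bulk RNA fewer cells of a type and less RNA per cell cannot be told apart.

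Casp1 and Casp4 lie next to each other on chromosome 9, with 1567 bases between the end of Casp1 (5298517 to 5307281) and the start of Casp4 (5308849 to 5336791). Casp1, whose product cleaves pro-interleukin-1 beta, was at 33.1, 63.3 and 13.2 FPKM in the AVP libraries, with control values of 45.1, 53.6 and 73.2 FPKM. AVP replicate 2 lay within the controls, and AVP replicates 1 and 3 lay below them. Its log2 fold change was -0.78 by limma (SE 0.54, 95% interval -2.02 to 0.47, adjusted p 0.775). It was -0.19 without AVP replicate 3, the library in which Casp1, Aim2 and the summed monocyte markers were all lowest. Of those markers, Treml4 and Csf1r were not lowest there. The part of monocyte RNA in these levels was not tested. Leaving out AVP replicate 2 gave a Casp1 log2 fold change of -1.24.

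Casp4, which encodes caspase-11 in the mouse, had the largest SE among the 9 members tested. It was at 8.76, 149.6 and 52.0 FPKM in the AVP libraries, with control values of 40.0, 92.4 and 36.8 FPKM. The lowest and the highest of the 6 libraries were both AVP libraries. The log2 fold change was -0.22 (SE 0.87, 95% interval -2.22 to 1.78), and its sign turned without AVP replicate 1 (0.79) and without control replicate 2 (0.21). The Casp4 to Casp1 ratio was 0.265, 2.36 and 3.94 in the AVP libraries and 0.887, 1.72 and 0.502 in the controls, so neither caspase led in all libraries of a group.

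Gsdmd, which encodes the pore-forming protein cut by both caspases, had the smallest SE among them. It was at 28.04, 48.6 and 38.9 FPKM in the AVP libraries, with control values of 29.6, 49.2 and 27.4 FPKM. The means were 38.5 ± 10.3 FPKM after AVP and 35.4 ± 12.0 FPKM in controls (SD, n = 3 each), and the ranges nearly coincided. The log2 fold change was 0.22 (SE 0.37, 95% interval -0.64 to 1.07), so these libraries leave room for changes of either sign within that interval. Its SE was below the median SE of all genes tested (0.65), while that of Casp4 was above it.

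**Figure D2:**
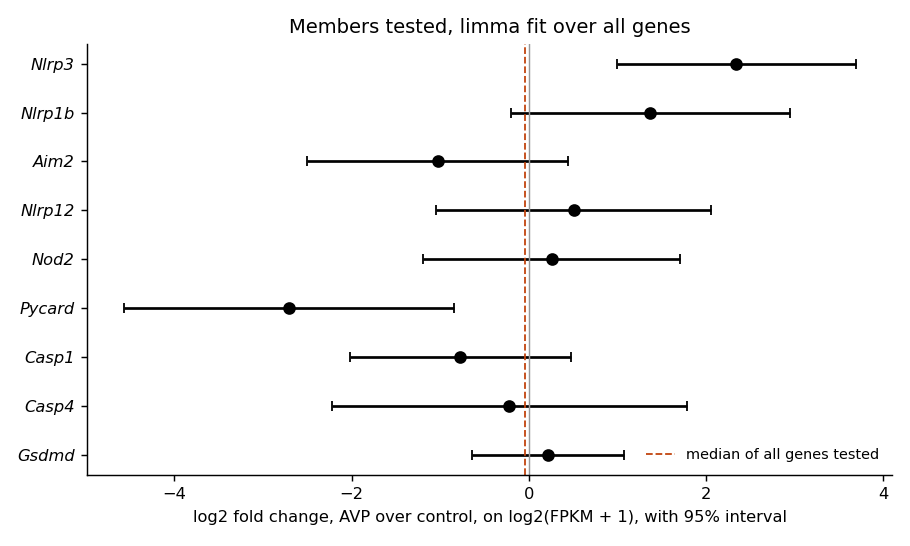
Fitted log2 fold change of AVP over control on the log2(FPKM + 1) scale (horizontal axis) for the 9 members tested, with 95% intervals from limma before adjustment. The interval of Nlrp3 lies above 0 and that of Pycard below it, and the other 7 include 0.

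The order of the mean levels placed Nlrp3 and Pycard differently in the groups. After AVP the order was Casp4 (70.1 FPKM), Gsdmd (38.5 FPKM), Casp1 (36.5 FPKM), Nlrp3 (20.0 FPKM), Nlrp12 (15.7 FPKM), Aim2 (5.90 FPKM), Nod2 (5.62 FPKM), Nlrp1b (4.81 FPKM), Pycard (2.51 FPKM) and Nlrc4 (0.219 FPKM). In the controls Casp1 (57.3 FPKM) and Casp4 (56.4 FPKM) led, followed by Gsdmd (35.4 FPKM), Pycard (17.2 FPKM), Nlrp12 (12.3 FPKM), Aim2 (11.5 FPKM), Nod2 (4.36 FPKM), Nlrp3 (2.96 FPKM), Nlrp1b (1.49 FPKM) and Nlrc4 (0.160 FPKM). Neighbours in these orders mostly did not differ beyond their spread: after AVP no gene was above its next neighbour in all 3 libraries. In the controls Casp4 was above Gsdmd, Gsdmd above Pycard, Aim2 above Nod2, Nlrp3 above Nlrp1b, and Nlrp1b above Nlrc4 in all 3.

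The levels of sensor and adaptor were also set side by side within each library. This restates the values above and is no further support, because the groups already did not overlap for either gene. The ratio of Nlrp3 to Pycard FPKM was 1.73 and 22.2 in AVP replicates 2 and 3, and could not be formed in AVP replicate 1, where Pycard was listed at 0. In control replicates 1, 2 and 3 the ratio was 0.277, 0.142 and 0.154. Nlrp3 was above Pycard in all 3 AVP libraries, counting the 0 of Pycard in AVP replicate 1, which may be a failed estimate. It was below Pycard in all 3 controls. Relative to Casp1, Pycard was at 0, 0.0956 and 0.112 in the AVP libraries and at 0.212, 0.383 and 0.294 in the controls. The sum over all 10 members was 199.9 ± 102 FPKM after AVP and 199.0 ± 45.9 FPKM in controls (SD, n = 3 each). Casp1 and Casp4 together gave 107 ± 92.7 FPKM after AVP and 114 ± 30.6 FPKM in controls.

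**Figure D3:**
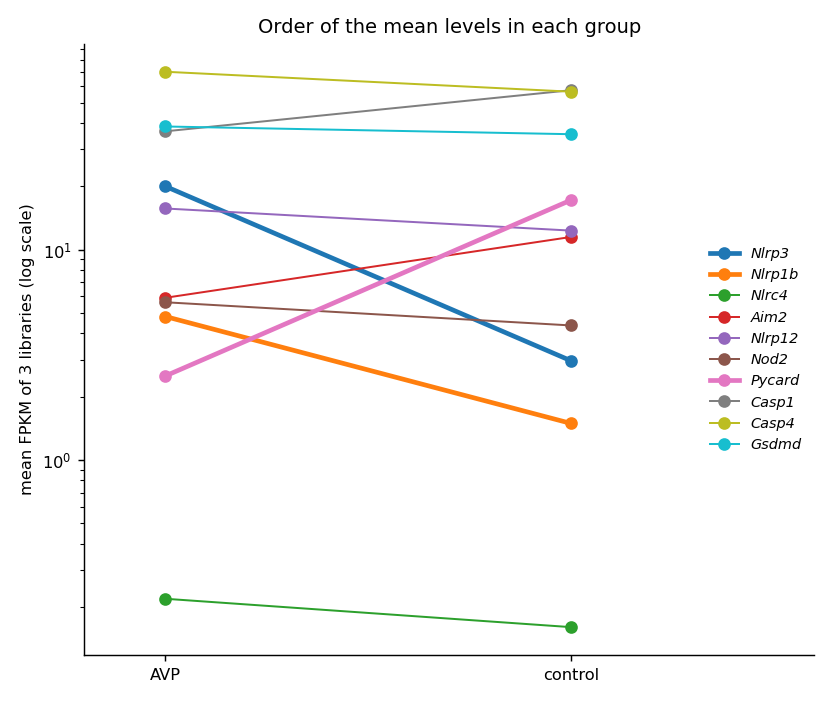
Mean FPKM of the 3 libraries of each group (vertical axis, log scale) for each of the 10 members, AVP on the left and control on the right, with thick lines for members whose groups do not overlap. The lines of Nlrp3 (20.0 and 2.96 FPKM) and Pycard (2.51 and 17.2 FPKM) cross, while Gsdmd runs nearly level.

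Stability under the loss of a library differed between the members. At an unadjusted p under 0.05, Nlrp3 and Pycard were the members called in each of the 6 fits with a library left out. Aim2 and Casp1 joined them without AVP replicate 2, with log2 fold changes of -1.57 and -1.24, and Nlrp1b joined without control replicate 2, with 1.76. The adjusted p of Nlrp3 ranged from 0.260 to 0.733 over the 15 alternatives, and that of Pycard from 0.288 to 0.733.

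**Figure D4:**
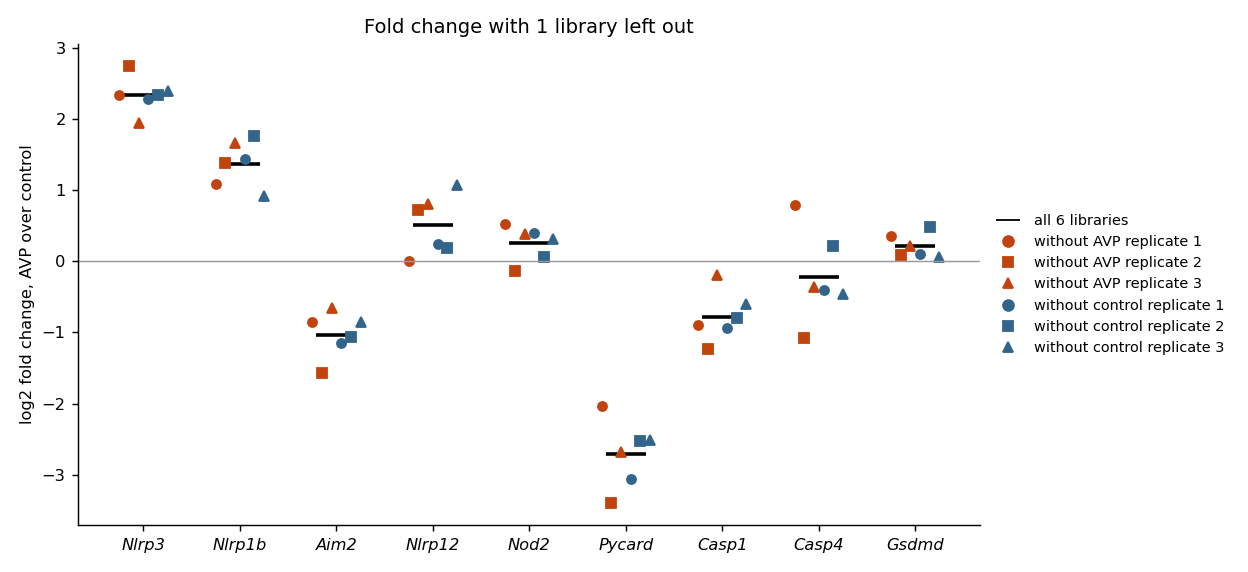
Log2 fold change of AVP over control (vertical axis) for the 9 members tested, with all 6 libraries (black bar) and with each library left out (marker shape for the replicate, colour for the group it came from). Nlrp3 stays between 1.94 and 2.75 and Pycard between -3.40 and -2.03, while Casp4 runs from -1.08 to 0.79.

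The other genes of the pathway were taken from 7 lists, which together hold 105 genes, of which 17 were listed at 0 in all libraries and 64 passed the filter. None of them (0) passed an adjusted p of 0.05 by limma over all genes; without adjustment 3 were higher and 5 lower. These 8 are 12.5% of those tested, beside 8.47% of all genes. The groups did not overlap for 4 that were higher and 10 that were lower, where 6.39% and 7.63% of all genes lay. The lists were chosen with earlier results of these data known, so setting these shares side by side is not an unbiased comparison.

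Cytokines cleaved by caspase-1 were led by Il1b, at 4102, 3555 and 3724 FPKM in the AVP libraries, with control values of 2294, 2129 and 2431 FPKM. All 3 AVP libraries were above the controls, by 0.82 on the log2 scale in limma (SE 0.17, adjusted p 0.203). The ratio of Il1b to Casp1 was 124.0, 56.2 and 282 in the AVP libraries and 50.9, 39.7 and 33.2 in the controls, so it was higher in each AVP library. Il18, the other main substrate, was at 4.79, 0 and 11.2 FPKM in the AVP libraries, with control values of 0, 11.7 and 11.6 FPKM, with no separation. Il1a was listed at 0 in all 6 libraries. The receptor antagonist Il1rn differed by 0.33 (SE 0.22) on the log2 scale, while Il18bp, which neutralises interleukin-18, differed by 1.09 (SE 0.83). Of the 4 members of this list that were tested, 1 (Il1b) had an unadjusted p under 0.05, and the median log2 fold change was 0.57.

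Of 11 tested sensors and NLR genes outside the 10 members, 1 had an unadjusted p under 0.05, and the median log2 fold change was -0.38. That gene was Ifi203, of the same family of DNA-binding proteins as Aim2, at 8.57, 19.9 and 6.97 FPKM in the AVP libraries, with control values of 44.5, 29.3 and 26.8 FPKM. Nod1, which senses diaminopimelic acid peptides, was at 9.20, 11.1 and 3.23 FPKM in the AVP libraries, with control values of 14.6, 24.1 and 11.9 FPKM, without overlap. Nlrc5, the activator of MHC class I genes, was at 3.58, 3.08 and 1.64 FPKM against 1.30, 0.380 and 0.527 FPKM in the controls. Naip5, the flagellin receptor that engages Nlrc4, was at 4.62, 7.19 and 2.47 FPKM in the AVP libraries, with control values of 0.768, 2.09 and 3.27 FPKM, so the groups overlapped. Of 5 tested caspases outside the members, 0 had an unadjusted p under 0.05, beside 8.47% of all genes, and the median was 0.35. Log2 fold changes were -0.12 for Casp8, 0.35 for Casp2 and 0.65 for Casp9, with SE between 0.65 and 0.81.

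Downstream of the gasdermin pore, Ninj1, which encodes the membrane protein that ruptures dying cells, was at 59.2, 56.0 and 98.5 FPKM in the AVP libraries, with control values of 150.8, 101 and 136.7 FPKM. All 3 AVP libraries were below the controls, with a log2 fold change of -0.80 (SE 0.32), an unadjusted p of 0.0356 and an adjusted p of 0.527 by limma. Gsdme, another pore-forming gasdermin, was at 4.41, 3.05 and 4.05 FPKM in the AVP libraries, with control values of 7.18, 8.60 and 7.92 FPKM, also without overlap. Chmp3, a subunit of the membrane repair machinery, had a log2 fold change of -0.42 (SE 0.41). In this list 5 genes of 14 were tested, and only Ninj1 (20.0%) had an unadjusted p under 0.05, beside 8.47% of all genes. The other gasdermin genes, 7 of the 14, were listed at 0 in all libraries.

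Among 17 tested genes of licensing and activation, 3 (17.6%) had an unadjusted p under 0.05, beside 8.47% of all genes. They were Irgm1 (higher) and Txnip and Gbp3 (lower). The median log2 fold change of the list was -0.09, and that of all genes was -0.04. Irgm1, an interferon-inducible GTPase, was at 69.5, 71.1 and 39.3 FPKM in the AVP libraries, with control values of 17.8, 30.4 and 28.2 FPKM. Txnip, a thioredoxin-binding protein that has been tied to Nlrp3 activation, was at 219, 136.5 and 135.9 FPKM in the AVP libraries, with control values of 356, 259.6 and 284 FPKM. Gbp3, a guanylate-binding protein, was listed at 0 in AVP replicates 1 and 2 and was at 5.81 FPKM in replicate 3, against 6.02, 28.4 and 6.41 FPKM in the controls. Nek7, the kinase that docks on Nlrp3, was at 3.09, 5.54 and 10.7 FPKM in the AVP libraries, with control values of 10.5, 13.5 and 12.1 FPKM, with a log2 fold change of -0.86 (SE 0.56). Thus the highest Nek7 value of the AVP group lay just inside the range of the controls.

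Among 13 tested genes of restraint, Tnfaip3 (higher) and Atg5 (lower) had an unadjusted p under 0.05, and the median log2 fold change was -0.37 (-0.01 without AVP replicate 1, -0.20 without AVP replicate 3 and -0.18 without control replicate 1). Tnfaip3, which encodes the NF-kB inhibitor A20, was at 55.3, 40.1 and 45.4 FPKM in the AVP libraries, with control values of 1.37, 7.19 and 4.07 FPKM. It differed by 3.44 on the log2 scale (SE 0.56, adjusted p 0.109 by limma). Atg5, an autophagy gene, was at 5.54, 11.2 and 7.82 FPKM in the AVP libraries, with control values of 16.7, 16.3 and 43.5 FPKM. Lrrfip2 had a log2 fold change of -1.63 (SE 0.87). Of 10 tested partners of Nod2, 1 was higher at an unadjusted p under 0.05, Irgm1, which both lists hold. Birc2, a ubiquitin ligase, had 1.00 (SE 0.60) and Nagk, a sugar kinase, 1.35 (SE 1.00).

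**Figure D5:**
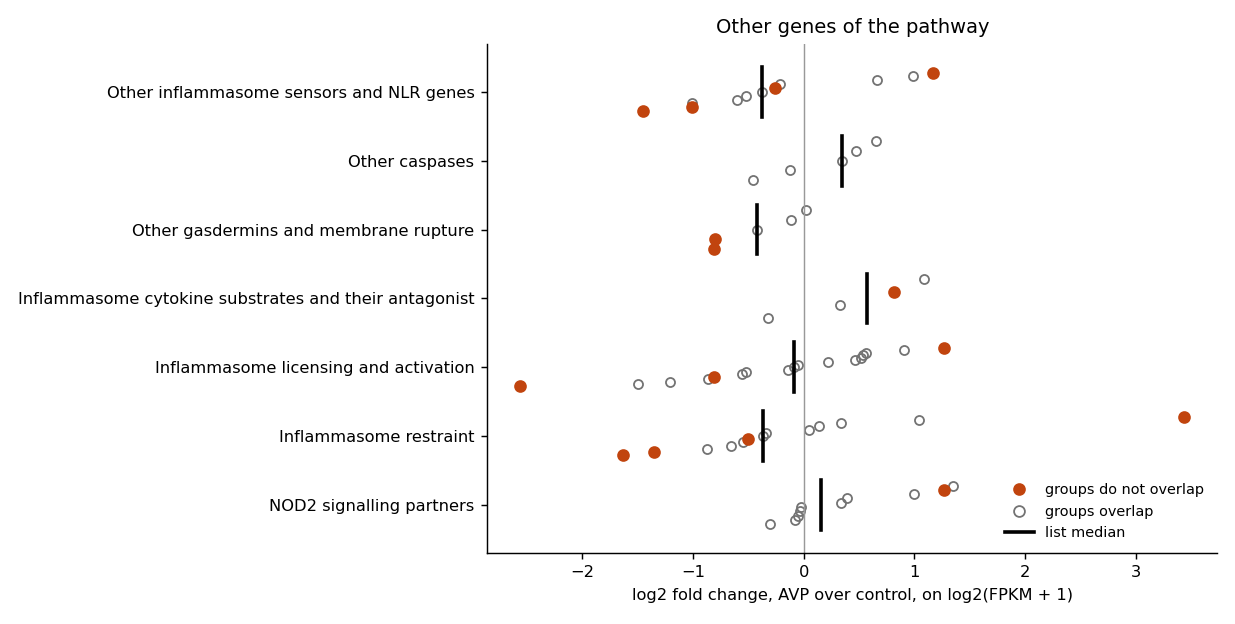
Log2 fold change of AVP over control (horizontal axis) of the tested genes of each of the 7 lists, with filled points where the groups do not overlap in deposited FPKM and a black bar at the list median. The point at 3.44 is Tnfaip3 and the lowest point, at -2.56, is Gbp3.

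The tested gene most alike in pattern was found for each of the 7 members with a mean of at least 5 FPKM, by Pearson's r of the scaled log2(FPKM + 1) over the 6 libraries, among 4422 genes. For Nlrp3 it was Klf3, a transcription factor gene (r = 0.976, Spearman's rho 0.771), at 62.0, 54.4 and 85.0 FPKM in the AVP libraries, with control values of 39.5, 38.1 and 32.9 FPKM. For Pycard it was the zinc finger gene Zfp944 (r = 0.988, rho 1.00), at 0, 2.84 and 0.819 FPKM in the AVP libraries, with control values of 7.68, 10.6 and 12.4 FPKM. For Casp1 it was Ear2, a ribonuclease gene (r = 0.992, rho 0.943), at 37.0, 75.8 and 3.91 FPKM in the AVP libraries, with control values of 41.9, 56.4 and 107 FPKM. The others were Sf3b2 for Aim2 (r = 0.990), Cpd for Nlrp12 (r = 0.990), Kdm7a for Casp4 (r = 0.974) and Slc25a11 for Gsdmd (r = 0.988). With 6 points that share library and depth, 22 to 79 genes reached r = 0.9 for each member, so such likeness is a description of these libraries.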

How the data were processed

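RNA of flow-sorted mouse blood neutrophils (3 AVP and 3 control libraries, grouped by their titles) was sequenced as paired reads from TruSeq libraries, per the labels' protocols. Per the submitters' processing notes, the tools of the authors were HISAT2 2.1, featureCounts 1.6.4, cutadapt 1.16.5, DESeq2 2.11.40.6 and bcl2fastq 2.19, on the mm10 build, with no role stated for each. The deposited values are taken to be FPKM per gene: the files name no unit, and this was inferred from values that are not whole numbers and sum to 755140 to 829725 per library. The number of fragments behind a value is therefore an estimate.

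The fit took the 8523 genes that reached 1 FPKM in 3 or more libraries. Scaling used trimmed log ratios against a library of geometric means (trimming 30% of ratios and 5% of levels from either end), and log2(FPKM + 1) was fitted with limma 3.58.1 in R 4.3.3, with an intensity trend and no replicate block. Fold changes on this scale understate those of low genes. Printed FPKM are the deposited values. The procedure was tested on simulated data. Alternatives were other scalings, filters, pseudocounts (0.1 and 5), no trend, a replicate block, the removal of haemoglobin, immunoglobulin and mitochondrially encoded genes, and leaving out each library. Coordinates and promoters came from RefSeq tables of GRCm38.p6, matched by symbol; 9 of the 10 members had at least 1 promoter window, Gsdmd having none. Genes named outside the members were, from each list, the 3 with the smallest p, and 8 genes always named; 1 gene that this rule takes is not reported here. Counts, exact tests and plots used Python 3.11.15. The members and lists were chosen with earlier results of these data known.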

Additional observations from a re-analysis of the deposited data

Results flagged for a closer look

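Nlrp6, a sensor gene best known from the gut epithelium, had a value in AVP replicate 1 alone, 4.51 FPKM, and 0 in the remaining 5 libraries. It drew attention because it lay outside the tested genes, was listed at 0 in all 3 controls and reached 1 FPKM in an AVP library. The same library had the highest basophil marker sum (338 FPKM), most of it Mcpt8 (230 FPKM). Mcpt8, Prss34, Cpa3, Ms4a2 and Cyp11a1 were highest there, while Fcer1a, Il4 and Gata2 were higher in control replicate 2. The part of basophil RNA in the Nlrp6 value was not tested. Among the 10 members and the 105 genes of the 7 lists, Nlrp6 alone was flagged in this way. Panx1, which encodes a membrane channel and was also too low to test, was at 16.3, 0 and 1.71 FPKM in the AVP libraries, with control values of 0, 0.834 and 0 FPKM.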

How the results depend on the processing

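No member was called at an adjusted p under 0.05 by limma under any of the 15 alternatives, and Nlrp3, Nlrp1b, Aim2, Nlrp12, Pycard, Casp1 and Gsdmd kept the direction of their fold change in each fit that tested them. Over all genes, where 0 were higher and 0 lower, 11 were higher with a filter of at least 5 FPKM, 3 with a pseudocount of 5, 1 with no intensity trend and 0 to 4 with a library left out. The 4, without control replicate 3, were Nfkbia, Ccrl2, Lmnb1 and Cxcl2. At an unadjusted p under 0.05, 199 genes were lower with the filter of 5 FPKM, which tests fewer genes. With no trend 2 members were higher and 3 pathway genes lower. With a library left out, 296 to 414 genes were higher and 219 to 416 lower, 1 to 2 members higher (2 without control replicate 2) and 1 to 3 lower (3 without AVP replicate 2), and 3 to 5 pathway genes higher (5 without AVP replicate 3) and 3 to 4 lower (3 without AVP replicate 2, AVP replicate 3 or control replicate 3). Signs turned with a library left out for Casp4 (-1.08 to 0.79), Nod2 (-0.13 to 0.52), Casp2 (-0.19 to 0.77), Casp8 (-0.52 to 0.54) and Il18 (-1.53 to 0.73). List medians also ran from -0.27 to 0.54 for the other caspases (-0.29 with the filter of 5 FPKM), from -0.44 to -0.01 for restraint, from -0.50 to -0.19 for other sensors and from -0.74 to -0.22 for other gasdermins. With all libraries, the median of other sensors was -0.6 with the filter of 5 FPKM. It was -0.57 with a pseudocount of 0.1 and -0.21 with a pseudocount of 5. Fewer libraries enter only the fits with a library left out, and the cause of the shifts was not tested.

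Same-numbered libraries did not deviate together (r of 0.0205, -0.0129 and -0.0423 for numbers 1, 2 and 3). This check cannot show whether the numbers pair the samples, because a weak shared effect could be hidden by the spread among libraries. With the replicate number as a block, the count past an adjusted p of 0.05 stayed at 0 by limma; without adjustment there were 357 higher and 313 lower, beside 402 and 320 without the block. With 3 libraries a group and levels that vary as they do for Casp4, small differences were not detectable. Larger ones failed the adjusted test too: the printed intervals are before adjustment. Those of Nlrp3 and Pycard exclude 0, yet their adjusted p was 0.291 and 0.351 by limma.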

Other observations

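Myd88, the adaptor of Toll-like receptors and a gene of the licensing and activation list, was at 95.7, 89.0 and 66.8 FPKM in the AVP libraries. Its control values were 108.8, 72.6 and 104.6 FPKM, so the groups overlapped, as they did for all but 14.0% of the genes tested. Mefv, which encodes the sensor pyrin, was at 13.7, 15.2 and 18.6 FPKM in the AVP libraries, with control values of 19.7, 20.2 and 20.7 FPKM, below every control but with a log2 fold change of only -0.26. Zbp1, a sensor of left-handed nucleic acid, was at 41.7, 27.0 and 37.1 FPKM in the AVP libraries, with control values of 22.1, 114 and 70.5 FPKM. Ripk2, the kinase that Nod2 signals through, was listed at 0 in AVP replicate 1 and in control replicates 1 and 3, and was at 5.93 FPKM at most, in control replicate 2. Ripk3 and Mlkl, the kinase and pore protein of necroptosis, were listed at 0 in all 3 AVP libraries, and reached 1.75 and 2.26 FPKM in a single control library each. These genes were chosen after their values were seen.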
